A study of Mus musculus with 4 samples.

Results

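The cells described here are those of the authors' cluster 2, a naive-like group of mesenteric lymph node (mLN) CD4 T cells that was given with the leading genes Dapl1, Igfbp4, S1pr1, Lef1 and Rasgrp2. Its members were taken from the authors' deposited cell table as the cells that passed their filter and carried cluster number 2. They were 2591 of 16948 analysed cells, and the comparison set was the other 14357 cells. All mice were male and germ-free at the start. One genotype was Foxp3GFP, in which GFP reports Foxp3, and the other was Foxp3CNS1-, which lacks an enhancer of Foxp3. One group of each genotype stayed germ-free and one received fecal microbiota of SPF (specific-pathogen-free) mice and was taken 9 days later. For each of the 4 groups the mLN of 3 mice were pooled, GFP+ and GFP- CD4 T cells were mixed in equal parts by sorting, and 1 library was made with 10x 3′ v3 chemistry with about 5000 cells targeted. The sources used here give neither the age of the mice nor how the reporter allele was made.

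Naive CD4 T cells have left the thymus and have not yet met their antigen. They circulate between blood and lymph nodes, entering with the help of CCR7 and leaving along a sphingosine 1-phosphate gradient through S1pr1, and factors such as Lef1, Tcf7 and Klf2 hold their program. A T cell that senses type I or type II interferon raises a shared set of antiviral and antigen presentation genes through STAT proteins and interferon regulatory factors. CNS1 is an enhancer within an intron of Foxp3, and naive CD4 T cells that become regulatory T (Treg) cells in the periphery, such as the gut, rely on it.

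Values below are in the order germ-free Foxp3GFP, colonized Foxp3GFP, germ-free Foxp3CNS1- and colonized Foxp3CNS1- unless another order is named. A level is in CPM, the UMIs (counted molecules) of a gene scaled to the total UMIs of the cells named, and it is not scaled to gene length, so levels are compared within a gene. Cluster 2 held 806, 530, 714 and 541 cells of libraries of 3979, 4030, 3533 and 5406 analysed cells, with 2106200, 1498360, 1846354 and 1505218 UMIs. The sort can set these numbers, so no size of a cluster is compared here. The median cell of cluster 2 had 2456.5, 2715, 2379 and 2636 UMIs and between 947 and 1028.5 genes, and no cell of it was under 1000 UMIs. Mitochondrial transcripts were 2.44%, 2.10%, 2.33% and 2.09% of its UMIs. No doublet caller was run here, and the sources used here do not say whether doublets had been removed. Among all analysed cells 157 barcodes occurred in more than 1 library, 49 cluster 2 cells carried one of them, and 3 barcodes were shared within cluster 2.

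With 1 library per group nothing could be tested. The exact 95% (Clopper-Pearson) interval beside a ratio of libraries covers only counting error, not the spread between mice, pools or library preparations. Microbiota, pool and library cannot be told apart, and the same holds for genotype. In summed counts, fewer cells that express a gene and less RNA per cell cannot be told apart either.

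The leading genes fit a naive label against the bulk of the cells but did not set cluster 2 apart from its neighbour, cluster 1. Dapl1 (chr2:59484653-59505020, plus strand, GENCODE annotation of mm10) had 339, 289, 291 and 333 CPM in cluster 2, against 144, 106, 84.0 and 84.8 in all other cells. Cluster 1, with 2751 cells, had 360, 311, 286 and 351 CPM of Dapl1. So the groups did not overlap between cluster 2 and the rest, while clusters 1 and 2 overlapped fully. Igfbp4, a secreted binding protein of insulin-like growth factors, had 506, 589, 514 and 613 CPM, and S1pr1, the egress receptor, had 286, 224, 233 and 181. Lef1, a factor of the Wnt-responsive TCF family, had 525, 500, 463 and 531 CPM. Rasgrp2, an activator of Rap1 in integrin adhesion, had 184, 228, 207 and 185 CPM. All 5 genes were at least 1.5-fold above the other cells in every library. Against cluster 1 none of the 5 was past 1.5-fold in all libraries, 1 was higher in all 4 and 2 were lower in all 4. These genes served to form the clusters, so the ratios are a description.

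**Figure D1:**
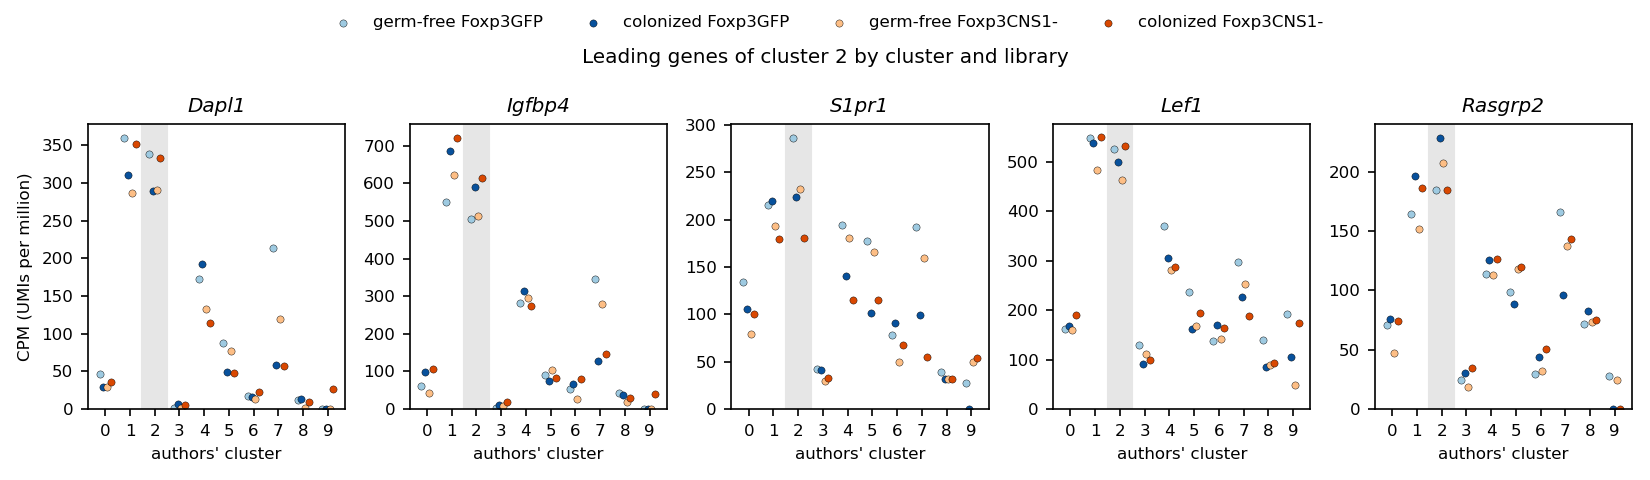
Level of the 5 leading genes (vertical axis, CPM) in each of the authors' 10 clusters (horizontal axis, cluster number), with 1 point per library and cluster 2 shaded. Clusters 1 and 2 stand together at the top for Dapl1, with medians over libraries of 331 and 312 CPM, and cluster 4 follows at 152.

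A UMI of Dapl1 was found in 33.7%, 28.1%, 29.6% and 30.1% of cluster 2 cells, in 16.3%, 14.2%, 9.86% and 11.2% of all other cells and in 39.2%, 39.5%, 34.8% and 41.2% of cluster 1 cells. A single cell therefore often lacked a UMI of its cluster's leading gene at this depth. With each cell thinned to 1000 UMIs, at least 1 of the 5 genes was detected in 75.8%, 75.3%, 71.8% and 72.1% of cluster 2 cells. The share was 46.6%, 43.1%, 36.4% and 39.3% in all other cells, of which 38, 16, 22 and 30 were under that depth and left out.

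Several other markers of naive T cells stood with the label. Klf2, a factor that drives S1pr1, had 1189, 1152, 1237 and 1154 CPM, against 663, 649, 569 and 597 in all other cells. Ccr7 had 354, 394, 360 and 400 CPM against 217, 224, 190 and 197. Tcf7 had 275, 297, 256 and 316 CPM. Both lists of naive genes leaned the same way: 14 of 18 surface and cytoplasmic genes and 8 of 12 transcription factors were higher in cluster 2 than in all other cells in every library, 7 and 3 of them by at least 1.5-fold. Over all 8342 genes compared, 8.91% were higher in every library. Il7r, the survival receptor of resting T cells, was lower than in cluster 1, at 126, 110, 119 and 97.7 CPM against 170, 146, 131 and 130.

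Genes of T cell identity were present, and most defining markers of other cell types were at or near 0. Cd3e, a chain of the T cell receptor complex, had 356, 337, 352 and 326 CPM, and Cd4 had 120, 149, 134 and 132. The B cell marker Ms4a1 had 0 UMIs in cluster 2 in all libraries, and Cd79a had 9, 1, 4 and 1. Ighm, the immunoglobulin heavy chain of B cells, was not near 0, at 314, 298, 317 and 288 CPM against 752, 763, 862 and 821 in all other cells, and it held most of the sum of the B cell list. Its source was not tested. Jchain, of plasma cells, had 2, 3, 0 and 3 UMIs, and the myeloid gene Lyz2 had 5, 0, 2 and 2. Cd8a had 5, 0, 2 and 1 UMIs, though Cd8b1 had 50, 34, 42 and 34. Scaled to CPM, Cd8b1 was higher in cluster 2 in every library than in all other cells, which had 16.2, 16.3, 19.3 and 18.1 CPM. Mki67, a proliferation marker, had 0, 2, 2 and 1 UMIs.

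Against all other cells, more genes were lower than higher in cluster 2 past the threshold. Of 8342 genes with at least 50 UMIs over both sets of cells in every library, 504 (6.04%) were at least 1.5-fold lower in cluster 2 in all 4 libraries and 66 (0.791%) were higher. The other cells hold several times the UMIs of cluster 2, so a gene can reach the minimum through them alone, which favours the lower side of this count. The median gene lay between -0.20 and -0.13 on the log2 scale. Genes were ranked by their smallest ratio over the 4 libraries. The first 10 on the lower side were of proliferation, apart from Lag3 and Cybb. Hist1h2ap, a replication-dependent histone, had 13.8, 8.01, 11.9 and 4.65 CPM against 218, 389, 253 and 217. Birc5, Pclaf, Cdk1, Nusap1, Ube2c, Tk1 and Mki67, all of the cell cycle, were in the same list. Lag3, an inhibitory receptor of activated T cells, had 8.55, 8.68, 7.58 and 7.31 CPM against 114, 140, 133 and 137. Cybb, a subunit of the phagocyte oxidase, had 0.95, 2.0, 3.25 and 0 CPM against 28.7, 24.0, 36.1 and 25.8.

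All 16 measured Treg core genes were at least 1.5-fold lower in cluster 2 than in all other cells in every library. So were 12 of 18 effector and memory genes, 10 of 15 cell cycle genes and 7 of 10 follicular helper genes. Lists of B cell markers (7 of 7 measured genes) and plasma cell markers (2 of 2) were lower too. Over all 8342 genes compared, 6.04% were lower by that size in every library. A list member can reach the minimum through the other cells alone, and the clusters were formed from these same data. GFP+ cells were also sorted to an equal part of each library, so the sort can set how many Treg cells the other cells hold. The counts are therefore a description. Beside these, ribosomal protein genes took 42.6%, 42.3%, 42.5% and 42.5% of the UMIs in cluster 2, against 38.5%, 37.7%, 36.0% and 35.8% in all other cells, and the part of that share in the ratios was not tested.

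The first 10 on the higher side included Dapl1 and Igfbp4. Ampd1, an AMP deaminase, led them with 14.7, 18.0, 15.7 and 12.6 CPM against 4.75, 5.70, 4.53 and 4.02. Cnn3, an actin-binding calponin, had 32.8, 27.4, 26.0 and 32.6 CPM against 13.8, 11.3, 8.12 and 10.4. Acvrl1, a type I receptor of the TGF-beta superfamily, had 13.8, 16, 14.1 and 19.3 CPM against 5.90, 5.61, 4.26 and 6.82. The others were Tdrp, Ggt5, Rapgef4, a cAMP-responsive activator of Rap1, Amigo2, an adhesion molecule, and Itgb3, an integrin chain.

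Cluster 1 was the nearest neighbour by the leading genes, and little separated it from cluster 2. Of 4886 genes measured in both clusters, 5 (0.102%) were at least 1.5-fold higher in cluster 2 in all 4 libraries and none (0%) was lower. By any size, 1475 genes (30.2%) were higher in all libraries and 194 (3.97%) lower. Ribosomal protein genes took 47.0%, 47.6%, 46.8% and 47.3% of the UMIs of cluster 1, above the share in cluster 2 in each library, and the median gene was 0.11, 0.13, 0.11 and 0.12 higher in cluster 2 on the log2 scale. The ratios below are to be read against that shift.

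Cd200 (chr16:45382135-45409053, minus strand), a surface ligand of an inhibitory receptor on myeloid cells, ranked first by its smallest ratio over the 4 libraries. It had 65.5, 58.1, 56.9 and 39.9 CPM in cluster 2 and 29.8, 21.8, 28.98 and 20.6 in cluster 1, log2 ratios of 1.14, 1.42, 0.97 and 0.96. Id3, an inhibitor of E proteins that T cell receptor signals induce, had 256, 133, 187 and 142 CPM against 133, 80.3, 118 and 72.1. Igf2r, the receptor of insulin-like growth factor 2 and mannose 6-phosphate, had 58.4, 42.0, 41.2 and 33.9 CPM against 30.8, 23.7, 26.3 and 19.8. Stk26, a kinase, had 25.6, 24.0, 24.4 and 21.3 CPM against 16.4, 15.4, 12.7 and 14.0. In all 4 genes each library of cluster 2 was above the same library of cluster 1. The fifth gene, A430093F15Rik, is outside the ranking rule and is named after its values were seen, with log2 ratios of 1.59, 0.84, 0.60 and 1.49.

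Cd5 and its relative Cd6, both surface receptors that modulate T cell receptor signals, were also higher in cluster 2 in every library, below that threshold in part of them. Cd5 (chr19:10717116-10739002, minus strand), whose level follows the strength of self-peptide recognition in naive T cells, had 196, 154, 196 and 149 CPM in cluster 2 against 127, 109, 120 and 92.7 in cluster 1. Cd6, named after its values were seen, had 221, 234, 195 and 205 CPM against 161, 145, 149 and 128. Of 15 genes of the T cell receptor and CD4 complex, 12 were higher in cluster 2 in every library, none by 1.5-fold in all. Over all 4886 genes compared, 30.2% were higher in every library. The medians of this list were 0.21, 0.22, 0.23 and 0.18, against 0.11, 0.13, 0.11 and 0.12 for all genes. Lck, the kinase that starts T cell receptor signalling, had 806, 794, 780 and 799 CPM against 691, 691, 642 and 693. The GIMAP family of lymphocyte survival GTPases had 6 of 8 genes higher in all libraries, against the same 30.2% of all genes. Gimap7 had 128, 155, 116 and 140 CPM against 89.8, 100, 87.9 and 78.0.

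Genes of Treg cells were higher in cluster 2 than in cluster 1 as well, in every library for 8 of 9 measured Treg core genes. Over all 4886 genes compared 30.2% were, and none of the 8 was past 1.5-fold in all 4 libraries. Ikzf2, the Treg factor Helios, had 90.7, 69.4, 85.0 and 53.1 CPM against 63.6, 30.9, 29.9 and 14.7. Izumo1r, a folate receptor family member of Treg and anergic T cells, had 328, 416, 365 and 308 CPM against 285, 226, 251 and 177. Without the cells that held a Foxp3 UMI, the log2 ratios of Ikzf2 were 0.58, 1.23, 1.41 and 2.32, those of Cd200 were 1.16, 1.57, 0.87 and 1.02, and those of Cd5 were 0.74, 0.53, 0.67 and 0.70. For these genes the differences were as large or nearly so in cells with no Foxp3 UMI. In the same cells the log2 ratios of Il2ra were -0.40, 1.17, 0.70 and 1.47, and those of Tnfrsf4 were -0.14, 1.19, 0.51 and 1.18. At this depth a cell that expresses Foxp3 can lack a UMI of it, so the part of Treg cells in these differences was not tested. Pdlim4, a cytoskeletal PDZ and LIM protein, was lower in cluster 2, at 57.4, 66.7, 85.0 and 74.4 CPM against 89.8, 92.2, 126 and 112. Npm1, a nucleolar protein, had 1046, 999, 1045 and 1064 CPM against 1191, 1155, 1195 and 1237.

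**Figure D2:**
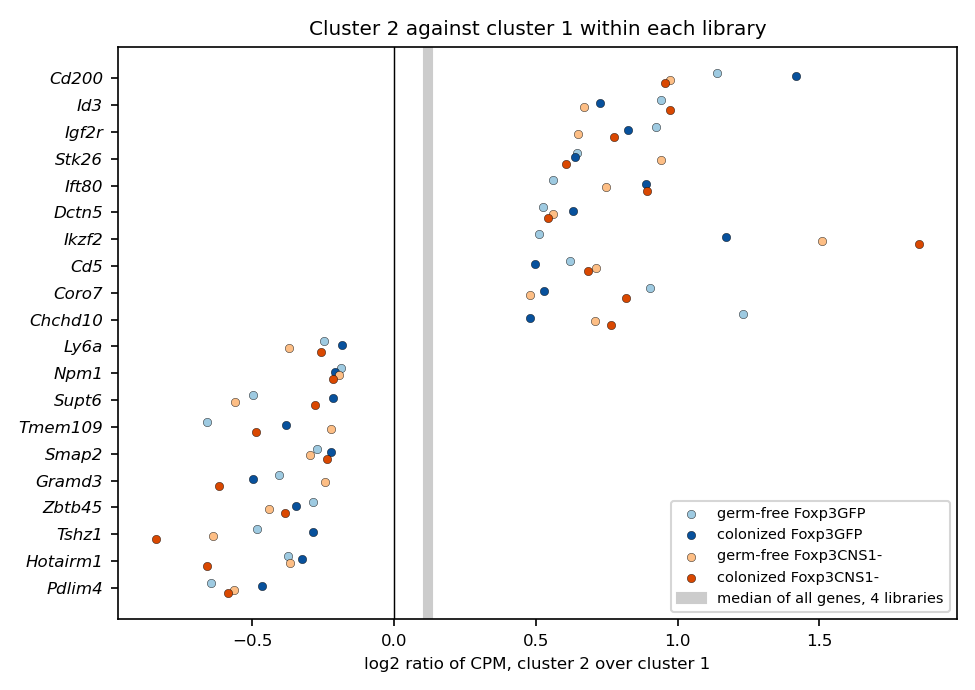
Log2 ratio of CPM, cluster 2 over cluster 1 (horizontal axis), for the first genes in each direction by their smallest ratio (vertical axis), 1 point per library, with the median of all genes in grey at 0.11 to 0.13. Cd200 lies at 0.96 or above in all 4 libraries, and no gene on the lower side reaches the same size.

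The colonization comparison asked how naive-like cells of mice with a new microbiota differ from those of germ-free mice, once in each genotype. In Foxp3GFP 41 of the 5623 genes whose UMIs in both libraries came to at least 50 (0.729%) were at least 2-fold higher in the colonized library and 28 (0.498%) lower. In Foxp3CNS1- 29 of 5357 genes (0.541%) were higher and 31 (0.579%) lower. The 2 contrasts use different libraries. Of 5225 genes measured in both, 18 (0.344%) were at least 2-fold higher in both, which was 51.4% of the higher genes of Foxp3GFP (0.67% of genes) and 66.7% of those of Foxp3CNS1- (0.517%). On the lower side 1 gene (0.0191%), Rgcc, was shared, which was 5.26% of the lower genes of Foxp3GFP (0.364% of genes) and 3.57% of those of Foxp3CNS1- (0.536%). The median gene was at -0.01 and -0.02 on the log2 scale.

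Interferon-stimulated genes made up most of what was shared. Of the 18 shared higher genes, 10 were on the list of interferon-stimulated genes and Iigp1 was on that of interferon-induced GTPases. Summed over the 41 genes of that list in the table, cluster 2 had 2651 and 2674 CPM in the germ-free and 5642 and 4955 in the colonized libraries of Foxp3GFP and Foxp3CNS1-. The log2 ratio of the sum was 1.09 (1.04 to 1.14) for Foxp3GFP mice and 0.89 (0.84 to 0.94) for Foxp3CNS1- mice. Of the members that reached 50 UMIs, 30 of 30 were higher in Foxp3GFP, where 48.5% of all genes were, and 27 of 28 in Foxp3CNS1-, where 46.5% were. At least 2-fold higher were 15 and 11 of them, and the medians were 0.99 and 0.84. A member can reach 50 UMIs through the library where it is high, so these counts do not cover the other members. The member that was lower in Foxp3CNS1- was Irf1, a factor of the type II interferon response, with 75.5, 92.8, 83.9 and 81.1 CPM. The response was not particular to cluster 2: the list medians were 1.11 and 0.86 in cluster 1 and 1.17 and 0.71 in all other cells.

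**Figure D3:**
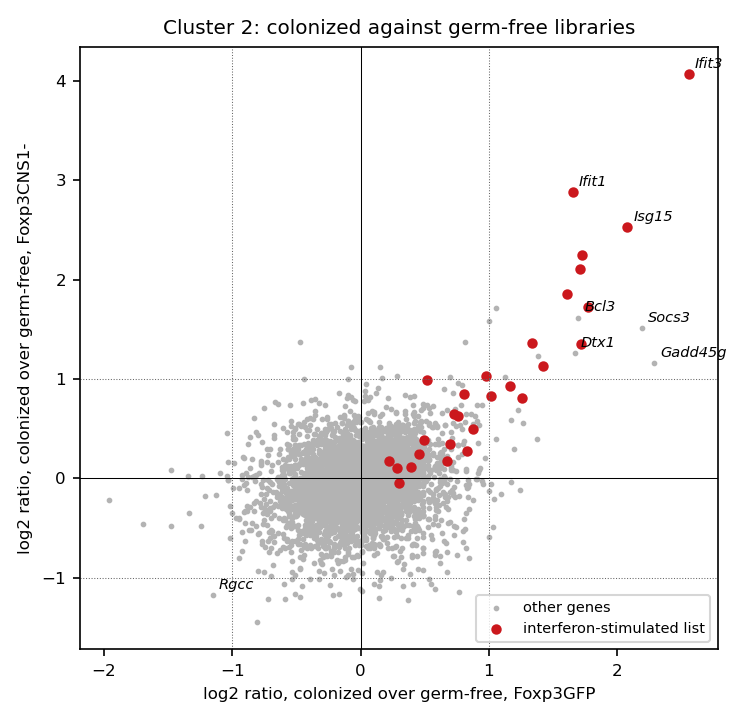
Log2 ratio of colonized over germ-free cluster 2 cells in Foxp3GFP (horizontal axis) and Foxp3CNS1- (vertical axis), 1 point per gene, over 5225 genes. The interferon-stimulated list in red lies above 0 on both axes apart from Irf1, Ifit3 is highest on the vertical axis at 4.06, and Rgcc is the only gene below the dotted 2-fold lines on both.

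Ifit3, an interferon-induced protein with tetratricopeptide repeats, had the largest ratio among the list members with at least 50 UMIs. Its level was 14.7 CPM in germ-free Foxp3GFP and 86.8 in colonized Foxp3GFP, and 5.96 and 99.7 in Foxp3CNS1-. Both colonized libraries were above both germ-free ones, with log2 ratios of 2.56 (1.99 to 3.17) and 4.06 (3.18 to 5.10). Ifit1 had 33.7, 106, 16.8 and 124 CPM, log2 ratios of 1.65 (1.24 to 2.08) and 2.88 (2.33 to 3.48). Isg15, a ubiquitin-like modifier, had 40.4, 171, 30.3 and 175 CPM, log2 ratios of 2.08 (1.72 to 2.45) and 2.53 (2.11 to 2.97). A UMI of Isg15 was found in 7.69% and 6.86% of germ-free and in 26.8% and 23.8% of colonized cluster 2 cells. After thinning these were 3.72% and 3.22% in the germ-free and 13.6% and 12.01% in the colonized libraries. All other cells had 11.03% and 11.5% in the germ-free and 35.8% and 31.1% in the colonized libraries. Among the shared genes with a RefSeq promoter window, these 3 held a core of the interferon-stimulated response element, the site of interferon-activated STAT and IRF complexes.

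The bases before their RefSeq start sites are shown because they carry this motif, 5′ to 3′ on the strand of the gene (RefSeq, GRCm38.p6), with the matches to GAAANNGAAA or its reverse complement TTTCNNTTTC in capitals. Isg15 is at chr4:156200819-156201068 on the minus strand, Ifit3 at chr19:34583279-34583528 and Ifit1 at chr19:34640639-34640870, both on the plus strand, and no base lies inside the gene in the GENCODE annotation.
Isg15: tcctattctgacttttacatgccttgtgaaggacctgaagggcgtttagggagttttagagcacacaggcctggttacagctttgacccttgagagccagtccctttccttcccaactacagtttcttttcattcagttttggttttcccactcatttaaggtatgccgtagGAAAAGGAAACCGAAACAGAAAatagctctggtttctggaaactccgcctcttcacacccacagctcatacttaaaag
Ifit3: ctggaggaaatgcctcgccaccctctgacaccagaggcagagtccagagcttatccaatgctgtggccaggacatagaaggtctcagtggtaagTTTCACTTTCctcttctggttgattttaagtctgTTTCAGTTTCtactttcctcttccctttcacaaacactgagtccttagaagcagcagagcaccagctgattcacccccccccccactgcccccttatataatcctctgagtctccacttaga
Ifit1: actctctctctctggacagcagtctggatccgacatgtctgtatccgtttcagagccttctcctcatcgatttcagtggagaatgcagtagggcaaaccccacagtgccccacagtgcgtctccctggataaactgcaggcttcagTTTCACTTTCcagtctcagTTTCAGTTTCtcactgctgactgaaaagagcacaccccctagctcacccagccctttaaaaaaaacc
Isg15 has 3 matches that overlap each other and begin 78, 72 and 66 bases before the start site. Ifit3 has matches 156 and 122 bases before it, and Ifit1 has matches 104 and 85 bases before it, and the same letters TTTCACTTTC and TTTCAGTTTC occur in both genes.

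The motif was searched on both strands from 250 bases before to 50 bases after the start site. It was present in 3.99% of 27025 genes, in 3 of the 13 shared higher genes with a RefSeq window (23.1%) and in 17 of 31 such genes of the interferon-stimulated list (54.8%). The STAT core TTCNNNGAA, which reads the same on both strands, was present in 9.55% of genes, in 1 of the 13 shared genes and in 7 of 31 list genes (22.6%). That 1 gene was Socs3, with TTCTTAGAA at 154 bases before its start site. A match is a stretch of letters and not a measured site.

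Other members of the list are regulators of the same response. Irf7, a factor that drives interferon genes, had 40.8, 125, 33.0 and 120 CPM, log2 ratios of 1.61 (1.24 to 2.0) and 1.86 (1.43 to 2.30). Usp18, which removes Isg15 from proteins and restrains the interferon receptor, had 17.6, 58.1, 12.5 and 59.1 CPM. Rtp4, an antiviral protein that binds zinc, had 37.0, 121, 28.2 and 121 CPM. In each of these the germ-free and the colonized libraries did not overlap. The RNA sensor Ifih1 had 5.70, 26.7, 10.8 and 11.96 CPM, so colonized Foxp3GFP alone stood high, and the difference between genotypes was not tested.

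Ifi27l2a was the most abundant member in the colonized libraries. It had 490, 1612, 503 and 1285 CPM, log2 ratios of 1.72 (1.61 to 1.83) and 1.35 (1.24 to 1.47). Ly6a, the surface antigen Sca-1, had 126, 432, 113 and 372 CPM, log2 ratios of 1.78 (1.57 to 1.99) and 1.72 (1.49 to 1.96). Bst2, the tetherin that holds budding virus, had 73.6, 176, 89.4 and 156 CPM.

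The higher level of the list as a sum was spread over the cells of cluster 2. Thinned to 1000 UMIs, the median cell held 2 UMIs of the list in both germ-free and 4 in both colonized libraries, and the mean was 2.69, 5.63, 2.65 and 5.03. Cells with no UMI of the list were 11.04%, 2.08%, 10.4% and 4.07%. The 90th percentile was 5, 11, 5 and 10 UMIs, so the upper cells moved with the median. Single members differed in how far a few cells held their UMIs. In colonized Foxp3GFP and colonized Foxp3CNS1-, 5 cells held 26.2% and 26.7% of the Ifit3 UMIs. For Ifi27l2a these shares were 5.92% and 5.58%. Lists of other cell types had these levels in cluster 2: the plasma cell list summed to 28.96, 54.7, 28.7 and 41.2 CPM, the myeloid list to 85.0, 82.1, 96.9 and 92.3 and the NK list to 6.65, 13.3, 6.5 and 14.0. The B cell list, with Ms4a1 at 0, summed to 384, 355, 381 and 351 CPM and the CD8 T cell list to 67.4, 46.1, 62.3 and 54.5. Their part in the interferon result was not tested.

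**Figure D4:**
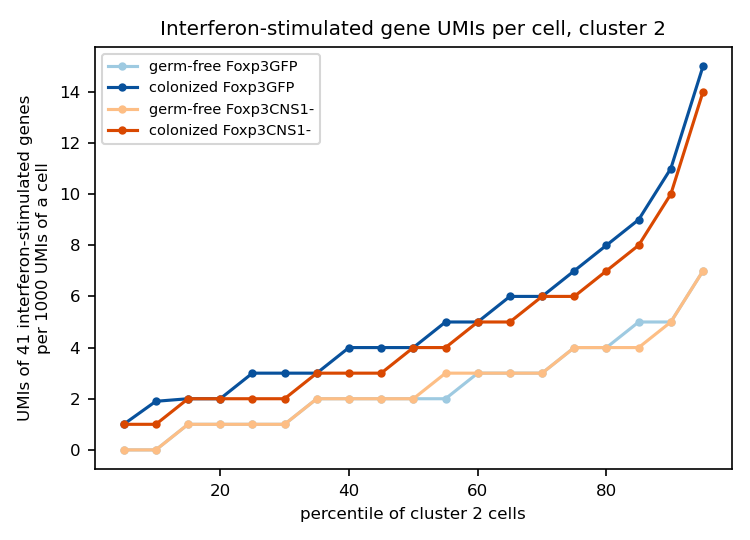
UMIs of the 41 interferon-stimulated genes in each cluster 2 cell thinned to 1000 UMIs (vertical axis), by percentile of cells (horizontal axis), 1 line per library. Both colonized lines run above both germ-free lines at the median, at 4 against 2 UMIs, and at the 90th percentile, at 11 and 10 against 5 UMIs.

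Interferon-induced GTPases, which act against pathogens in vacuoles, were higher in 10 of 10 measured genes in Foxp3GFP and 9 of 10 in Foxp3CNS1-, with medians of 0.90 and 0.54. Over all genes 48.5% and 46.5% were higher. At least 2-fold higher were 4 and 1, where 0.729% and 0.541% of all genes were. The list medians were 0.55 and 0.56 in cluster 1 and 0.42 and 0.26 in all other cells, so this was not particular to cluster 2. Gbp2, a guanylate-binding protein, had 41.8, 94.1, 41.7 and 62.4 CPM, log2 ratios of 1.17 (0.78 to 1.57) and 0.58 (0.13 to 1.04). Igtp, of the immunity-related GTPases, had 70.7, 131, 82.9 and 117 CPM. The germ-free and colonized libraries did not overlap for either gene.

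MHC class I and peptide loading genes were higher in 17 of 17 and 15 of 17 genes, with medians of 0.39 and 0.20, none by 2-fold. Over all genes 48.5% and 46.5% were higher. The list moved the same way elsewhere, with medians of 0.28 and 0.25 in cluster 1 and 0.27 and 0.13 in all other cells. B2m, the invariant chain of MHC class I, had 2893, 3749, 3217 and 3677 CPM, log2 ratios of 0.37 (0.32 to 0.43) and 0.19 (0.14 to 0.25). H2-D1, a heavy chain, had 2470, 2995, 2969 and 3237 CPM, so germ-free Foxp3CNS1- lay close to colonized Foxp3GFP. Psmb8, of the immunoproteasome, had 704, 832, 738 and 872 CPM. Of the receptors, Ifngr1, which binds type II interferon, had 88.3, 132, 83.4 and 106 CPM, and Ifnar1, which binds type I interferon, had 58.4, 60.1, 53.1 and 53.1.

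The shared higher genes outside the interferon lists included feedback and signalling genes of cytokine receptors. Socs3 (chr11:117966079-117970047, minus strand), which is induced by STAT3 and blocks gp130 cytokine receptors, had 43.7 CPM in germ-free and 200 in colonized Foxp3GFP. In Foxp3CNS1- it had 74.2 and 211 CPM. The log2 ratios were 2.197 (1.85 to 2.55) and 1.51 (1.22 to 1.81). A Socs3 UMI was found in 10.3%, 35.3%, 16.7% and 38.1% of cluster 2 cells. Its relative Socs1 differed less, at 42.7, 66.1, 53.6 and 58.5 CPM. Jak3, the kinase of the common gamma chain receptors, had 9.97, 20.02, 9.75 and 29.2 CPM, log2 ratios of 1.01 and 1.58.

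Bcl3, a nuclear cofactor of NF-kappa-B, had 13.8, 44.7, 11.9 and 36.5 CPM, log2 ratios of 1.70 and 1.62. Dtx1, a Notch-responsive ubiquitin ligase linked to T cell anergy, had 36.1, 115, 45.5 and 109 CPM, log2 ratios of 1.67 and 1.26. Gadd45g, a stress-inducible activator of p38 signalling, had 9.97, 48.7, 15.2 and 33.9 CPM, log2 ratios of 2.29 and 1.16. For these 3 genes each colonized library was above both germ-free ones. Hspa1a, an inducible heat shock protein, was found mainly in the colonized libraries, with 1, 44, 1 and 51 UMIs in 1, 29, 1 and 31 cells. In cluster 1 a Hspa1a UMI was found in 0, 48, 0 and 64 cells. Of the wider heat shock list 7 of 7 measured genes were higher in Foxp3GFP, where 48.5% of all genes were. In Foxp3CNS1- 5 of 8 were higher, where 46.5% of all genes were. Hspa1a, with 1 and 51 UMIs in Foxp3CNS1-, reached the minimum there through the colonized library alone. The list medians were 0.15 and 0.12, and the log2 ratios of the sum were 0.22 (0.16 to 0.28) and 0.15 (0.09 to 0.21). All other cells had medians of 0.41 and 0.30 for this list.

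Past 2-fold, 28 genes were lower in the colonized library of Foxp3GFP and 31 in that of Foxp3CNS1-, with 1 in both. Several of the genes named here were lower in both genotypes by less than that. Rgcc (chr14:79288756-79301645, minus strand), a regulator of cell cycle kinases, had 107, 48.1, 107 and 47.2 CPM, log2 ratios of -1.15 (-1.56 to -0.76) and -1.18 (-1.59 to -0.78). It was also lower in all other cells, at 66.4, 30.99, 51.1 and 33.9 CPM. Dusp2, a phosphatase induced by T cell receptor signals, had 139, 85.4, 151 and 76.4 CPM, log2 ratios of -0.70 (-1.01 to -0.39) and -0.98 (-1.31 to -0.66). Neither gene overlapped between germ-free and colonized libraries.

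Id3 and Cd5, both higher in cluster 2 than in cluster 1 in every library, were lower in the colonized libraries of cluster 2. Id3 had log2 ratios of -0.95 (-1.19 to -0.71) and -0.41 (-0.66 to -0.15), and Cd5 had -0.34 and -0.40. Tox, a factor of T cell development and of repeated stimulation, had 118, 58.1, 73.7 and 48.5 CPM, log2 ratios of -1.02 and -0.60. Sox4, a factor of immature and recently formed T cells, had 50.3, 18.0, 19.5 and 14.0 CPM, so germ-free Foxp3GFP alone stood high, where 5 cells held 34.9% of its UMIs. Egr1, an immediate early factor, had 34.7, 10.7, 20.04 and 14.6 CPM, log2 ratios of -1.70 (-2.58 to -0.90) and -0.46 (-1.29 to 0.34). The wider list of T cell receptor response genes showed no common direction, with 7 of 13 and 8 of 13 genes higher.

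Components of TGF-beta signalling leaned lower. Of the measured genes of that list 7 of 9 were lower in Foxp3GFP, where 51.5% of all genes were, and 8 of 8 in Foxp3CNS1-, where 53.5% were, with medians of -0.41 and -0.26. The lean was not particular to cluster 2: the list medians were -0.42 and -0.32 in cluster 1 and -0.33 and -0.34 in all other cells. In cluster 2 Smad7, the inhibitory Smad that TGF-beta induces, had 103, 60.7, 64.5 and 52.5 CPM. Tgfbr2, the ligand-binding receptor, had 56.0, 44.0, 58.0 and 43.8 CPM, and Tgfbr1, its partner kinase, had 28.0, 20.7, 22.7 and 13.3. Smad4, the common Smad, went both ways, at 18.0, 23.4, 23.3 and 9.97 CPM. Mitochondrial transcripts were lower by a similar size in 12 of 12 genes in both genotypes, with medians of -0.22 and -0.23, and their part in the lower lists was not tested. Naive transcription factors were lower in 11 of 12 and 7 of 12 genes, with medians of -0.26 and -0.13.

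The genotype comparison asked how naive-like cells differ when Foxp3 lacks CNS1, in germ-free and in colonized mice. It uses the same 4 libraries as the colonization comparison, so the contrasts share them. In germ-free mice 7 of 5901 genes (0.119%) were at least 2-fold higher in Foxp3CNS1- and 27 (0.458%) lower, and in colonized mice 9 of 4995 (0.18%) were higher and 24 (0.48%) lower. H2-DMa (chr17:34119541-34139101, plus strand), which helps to load peptides on MHC class II, had 87.4 and 88.8 CPM in the Foxp3GFP libraries and 207 and 167 in the Foxp3CNS1- libraries. The log2 ratios were 1.24 (0.99 to 1.51) without and 0.92 (0.61 to 1.23) with the microbiota. H2-DMa stood the same way in all other cells, at 101, 106, 180 and 150 CPM. Ppp3cc, a catalytic subunit of calcineurin, had 36.1, 32.7, 68.8 and 57.1 CPM, log2 ratios of 0.93 (0.51 to 1.36) and 0.81 (0.28 to 1.34). Both genes separated the genotypes in both states.

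For other genes the ratio differed in size or sign between the microbiota states, and that difference was not tested. Cd55, a complement inhibitor on T cells, had 49.9, 37.4, 21.1 and 31.9 CPM, log2 ratios of -1.24 (-1.81 to -0.70) without and -0.23 (-0.82 to 0.35) with the microbiota. Sox4 was lower in germ-free Foxp3CNS1-, with a log2 ratio of -1.37 (-1.96 to -0.81) against the library in which 5 cells held 34.9% of its UMIs. Socs3 was higher there, at 0.76 (0.37 to 1.16), and was level in colonized mice, at 0.08 (-0.15 to 0.31). Tmem173, the DNA sensor adaptor STING, had 41.3, 82.8, 49.3 and 45.2 CPM, so colonized Foxp3GFP alone stood high. Gstp1, a glutathione transferase, had 101, 142, 142 and 84.4 CPM, and its log2 ratio was 0.49 (0.23 to 0.76) among germ-free and -0.75 (-1.08 to -0.43) among colonized mice. Among the interferon-stimulated genes 26 of 33 were lower in colonized Foxp3CNS1- than in colonized Foxp3GFP, where 52% of all genes were lower, with a median of -0.19.

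Foxp3 itself (chrX:7573644-7595245, plus strand) is the gene that carries the deletion. Counts at its 3′ end do not read the enhancer, so they do not check the genotype. In cluster 2 it had 68, 64, 65 and 31 UMIs, or 32.3, 42.7, 35.2 and 20.6 CPM. The colonized Foxp3CNS1- library was lowest. Its log2 ratio was -0.77 (-1.44 to -0.14) to germ-free Foxp3CNS1- and -1.05 (-1.72 to -0.41) to colonized Foxp3GFP. In Foxp3GFP the colonization ratio was 0.40 (-0.11 to 0.92), and the genotype ratio in germ-free mice was 0.12 (-0.39 to 0.64).

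A Foxp3 UMI was found in 58 of 806 (7.20%), 48 of 530 (9.06%), 53 of 714 (7.42%) and 23 of 541 (4.25%) cells of cluster 2. Cluster 1, the neighbouring naive-like cluster, had 6.82%, 3.63%, 4.06% and 2.49%, with median depths of 2747, 2959, 2681.5 and 2978 UMIs, and all other cells had 18.2%, 22.7%, 18.1% and 21.6%. Thinned to 1000 UMIs the shares in cluster 2 were 2.73%, 3.02%, 4.34% and 2.03%, and no order is read from them. Of the 17 other Treg core genes, 12 were higher in every library in cluster 2 cells with a Foxp3 UMI than without. Another 1 was lower in every library, and 4 went both ways or had too few UMIs for a direction. No share over all genes is given for this comparison, so the count is a description and is not set against a background. Some of the 12 rest on few UMIs too. In the cells with a Foxp3 UMI, Ikzf4 had 8, 2, 7 and 1, and Tnfrsf9 had 7, 6, 6 and 6. The log2 ratio of Ikzf4, cells with over cells without, was 0.25 (-2.93 to 2.37) in colonized Foxp3GFP. It was 0.16 (-5.22 to 2.82) in colonized Foxp3CNS1-. Icos, a costimulatory receptor, was the lower one, with 5, 1, 5 and 2 UMIs in the cells with a Foxp3 UMI. Ikzf2 had 333, 249, 262 and 238 CPM in them against 68.8, 47.9, 67.8 and 43.9 in the rest of cluster 2, and Il2ra, the high-affinity IL-2 receptor chain, had 121, 187, 128 and 112 against 17.6, 26.2, 26.2 and 20.9. Dapl1 was lower in them, at 121, 43.5, 42.7 and 28.0 CPM against 359, 319, 315 and 348. These cells therefore shared the cluster number but not the level of its first leading gene.

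Treg core genes of cluster 2 went in opposite directions under colonization in the 2 genotypes. In Foxp3GFP the colonized library had higher levels of 12 of 14 measured genes, where 48.5% of all genes were higher, and the median was 0.41. In Foxp3CNS1- 11 of 12 were lower, where 53.5% of all genes were, with a median of -0.33. Il2ra had 26.1, 43.4, 35.2 and 25.2 CPM, log2 ratios of 0.73 (0.19 to 1.28) and -0.48 (-1.10 to 0.12). Gpr83, a receptor on Treg cells, had 28.96, 50.7, 36.3 and 27.2 CPM, log2 ratios of 0.81 (0.30 to 1.32) and -0.41 (-1.01 to 0.17). Ctla4, the checkpoint receptor, had 18.5, 30.7, 23.3 and 21.9 CPM, and Tnfrsf4, the costimulatory receptor OX40, had 68.8, 101, 80.2 and 77.1. In each of these 4 genes colonized Foxp3GFP was the highest library. Ikzf2 was lower in both genotypes, by log2 ratios of -0.39 (-0.74 to -0.03) and -0.68 (-1.08 to -0.28).

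Between genotypes 13 of 13 measured Treg core genes were lower in colonized Foxp3CNS1- than in colonized Foxp3GFP, with a median of -0.67, where 52% of all genes were lower. In germ-free mice 10 of 14 were higher, where 50.7% of all genes were, with a median of 0.14. Without the cells that held a Foxp3 UMI the colonization medians were 0.22 and -0.14 and the colonized genotype median was -0.31. With clusters 1 and 2 pooled, the Foxp3GFP colonization median was -0.07, of the other sign, and the Foxp3CNS1- median was -0.92. The opposite directions were therefore not kept over the pooled clusters. In cluster 1 both medians were below 0, at -0.52 and -0.47. All other cells had colonization medians of 0.14 and -0.09. The colonized genotype median was -0.35 in cluster 1 and 0.10 in all other cells. Cluster 1 held 689, 826, 394 and 842 cells, so its part in the pooled sums differed between libraries.

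**Figure D5:**
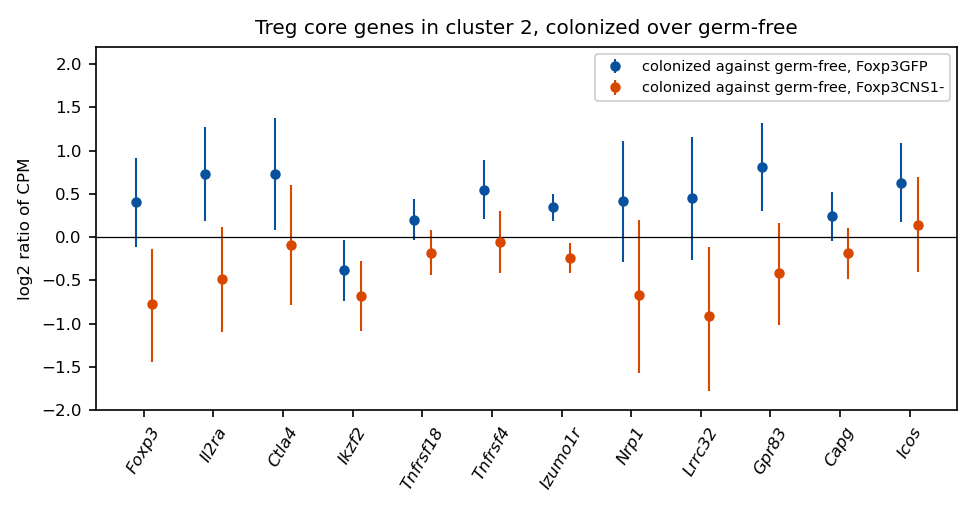
Log2 ratio of colonized over germ-free cluster 2 cells (vertical axis) for the 12 Treg core genes measured in both genotypes (horizontal axis), with 1 point per genotype and bars for the exact 95% counting interval. Most Foxp3GFP points lie above 0 and most Foxp3CNS1- points below, and Ikzf2 lies below 0 in both, at -0.39 and -0.68.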

How the data were processed

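The authors deposited a table of UMI counts, whole numbers per cell and gene, for 17478 cells and 13314 genes. The submitters' processing notes name Cell Ranger, Scanpy 1.5.1 and the mm10 build, and the version of Cell Ranger, the annotation and the filters are not stated in the sources used here. A second deposited table gave, as other columns, each cell's library, cluster number and filter mark. There 227 cells had no row and 303 were marked as removed, and both were left out. In that second file 4 columns stayed unused. Per the labels' protocols each library held GFP+ and GFP- CD4 T cells sorted in equal parts from 3 pooled mice.

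Counts were summed per library over the cells named and scaled to CPM (Python 3.11.15, numpy 2.4.6, scipy 1.17.1, pandas 2.3.3, matplotlib 3.10.9). Genes with at least 50 UMIs in the 2 libraries together were given a ratio with an exact 95% interval. A count of 0 was taken at a floor of 3 UMIs in a ratio. A gene counted as higher or lower past 2-fold between libraries, or past 1.5-fold the same way in all 4 libraries between clusters. Median cell depths were 2379 to 2715 UMIs, which limits shares of cells with a UMI, and those were repeated with each cell thinned to 1000 UMIs. PCR duplicates are removed by the UMIs, and the intervals cover counting error only. The calculation was tested on simulated data.

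The members and all 27 gene lists were chosen with earlier results of these data known. The genes named are up to 10 per direction, ranked between libraries by the interval bound nearest to a ratio of 1 and between clusters by the smallest ratio over libraries, and members of the lists as examples, which were picked after their values were seen. The ranking left out predicted and Y-linked genes, Xist, and genes of ribosomal proteins, mitochondria, immunoglobulins and T cell receptor chains. Alternatives changed the minimum, the scaling, the fold, the depth, the cell weights and the cells included. Gene positions are from GENCODE and promoters from RefSeq, both on GRCm38. Of the 18 genes higher in both colonized libraries, 13 had a promoter window. Values of some genes are not reported here.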

Additional observations from a re-analysis of the deposited data

Results flagged for a closer look

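Under colonization the Treg core genes of cluster 2 had a median log2 ratio of 0.41 in Foxp3GFP and -0.33 in Foxp3CNS1-, so the 2 genotypes went in opposite directions. Czib, a zinc-binding protein gene, had log2 ratios of 0.77 and -1.15 in the same order, and Gstp1 had 0.49 and -0.76. Gstp1 stood the same way in all other cells, at 122, 143, 176 and 91.4 CPM in the order germ-free Foxp3GFP, colonized Foxp3GFP, germ-free Foxp3CNS1- and colonized Foxp3CNS1-, while Czib there had 26.9, 30.9, 31.4 and 31.4 CPM. Each value rests on 1 library per group, and the difference between genotypes was not tested.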

How the results depend on the processing

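In the following, counts against cluster 1 or all other cells are genes at least 1.5-fold apart in all 4 libraries, unless another fold is named. Counts between libraries are genes at least 2-fold higher and then lower in cluster 2. With a minimum of 20 UMIs they were 134 and 190 for colonization in Foxp3GFP, 86 and 193 in Foxp3CNS1-, 33 and 8 in both, 80 and 133 for genotype in germ-free and 73 and 153 in colonized mice, with interferon-stimulated medians of 1.06 and 0.96. Against cluster 1 they were 17 and 1. With a minimum of 200 UMIs they were 13 and 2, 10 and 1, 9 higher in both, 1 and 0 and 0 and 0, with medians of 0.83 and 0.64. With cells thinned to 1000 UMIs they were 23 higher in Foxp3GFP, 19 and 15 in Foxp3CNS1-, 11 and 0 in both, 10 lower for genotype in germ-free and 7 lower in colonized mice, with medians of 1.065 and 0.90. Thinned, 2 genes were higher than in cluster 1, and 22 higher and 247 lower than in all other cells. Past 1.5-fold they were 228 and 242, 136 and 263, 42 and 27 in both, 175 and 178 and 113 and 187. Past 2-fold between clusters 0 genes were higher than in cluster 1, and 10 higher and 286 lower than in all other cells. With clusters 1 and 2 pooled there were 46 lower in Foxp3GFP, 45 and 63 in Foxp3CNS1-, 34 and 7 in both and 15 higher for genotype in germ-free mice, with medians of 1.18 and 1.01. With equal weight per cell the germ-free genotype count was 12 higher and the Foxp3GFP median 0.90. Without Foxp3 UMI cells that count was 4. Without the lowest and highest 5% of cells by UMIs it was 12, 2 genes were lower in both genotypes, and the Foxp3GFP median was 1.04. A higher minimum, thinning and a larger fold leave fewer genes or UMIs by construction, and for the other settings the cause was not tested. A further 70 such values stayed within 1.5 times or, for list medians, within the margin given next. Of 977 values of single genes and other lists, 885 stayed within their margin, 92 moved past it and 10 changed sign. For a gene between libraries the margin was its counting interval. For a list median it was the distance from the middle to either end of the interval of the list's summed counts. For a gene between clusters it was the standard deviation over the 4 libraries. No paired analysis was possible because each group has 1 library, and for the same reason no replicate could be left out. Depth limits genes under 50 UMIs, for which no ratio is given.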

Other observations

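Library values below are in the order germ-free Foxp3GFP, colonized Foxp3GFP, germ-free Foxp3CNS1- and colonized Foxp3CNS1-. Glycolysis genes were lower in cluster 2 than in all other cells in every library for 12 of 14 measured genes, where 39.2% of all genes were, with list medians of -0.41, -0.46, -0.36 and -0.55 on the log2 scale. Gapdh had 414, 429, 400 and 387 CPM against 652, 809, 721 and 826. In all other cells Gapdh was higher in both colonized libraries than in both germ-free ones, and in cluster 2 its 4 libraries spanned 387 to 429 CPM. GIMAP genes had medians of -0.15, -0.06, -0.26 and -0.19 against all other cells, close to the medians of all genes at -0.13, -0.14, -0.18 and -0.20. Of the BCL2 family 9 of 11 measured genes were lower than in all other cells in every library, 3 of them by at least 1.5-fold, and 1 was higher. That gene, the survival factor Bcl2, had 425, 404, 524 and 458 CPM in cluster 2 and 396, 283, 374 and 318 in all other cells, so every library of cluster 2 was higher. It was higher in Foxp3CNS1- than in Foxp3GFP cells of cluster 2, by log2 ratios of 0.30 (0.17 to 0.43) without and 0.18 (0.02 to 0.34) with the microbiota.

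Some differences followed a library rather than a cluster. Cdk5rap1 (chr2:154335380-154373010, minus strand), a mitochondrial tRNA-modifying enzyme, had 33.7, 8.68, 32.5 and 27.9 CPM in cluster 2 and 28.5, 5.53, 30.3 and 23.4 in all other cells, low in colonized Foxp3GFP alone. The mitochondrial transcript mt-Nd3 had 301, 257, 308 and 179 CPM in cluster 2 and 308, 250, 311 and 179 in all other cells, lowest in colonized Foxp3CNS1-. The transcript AY036118 had 35.1, 11.3, 11.9 and 6.64 CPM in cluster 2, highest in germ-free Foxp3GFP. Library and group cannot be told apart here. Nkg7 was lower in colonized Foxp3GFP, but 5 cells held 56.1% of its UMIs in the higher library.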
